A study of Mus musculus with 20 samples.

Results

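The 10 genes described here encode 9 enzymes of glycolysis and the glycerol phosphate branch and 1 lactate carrier: Pfkm, Aldoa, Tpi1, Gpd1, Pgk1, Pgam2, Eno3, Pkm, Ldha and Slc16a3. They were listed by symbol, and every probe set annotated to 1 of these genes alone was taken, which gave 21 of the 45101 probe sets on the array and 10 of the 18193 genes with such a probe set. Their RNA was measured in gastrocnemius, a calf muscle, of 10 samples from mice given JA16, an antibody that binds myostatin, and of 10 samples from mice given saline. JA16 was injected into the peritoneum on day 1 at 0.12 mg per g body weight and on day 3 at 0.09 mg per g, and the muscle was taken on day 5. The labels give no strain, sex or age, and name no control antibody for the saline group. They also do not say that each sample came from its own mouse, so each p-value rests on differences among the samples as labelled, and some of that variation may be technical.

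Glycolysis splits glucose into pyruvate in the cytosol and yields ATP without oxygen. Fast-twitch muscle fibres run it at high rates through muscle forms of several enzymes, and the gastrocnemius of the mouse is made up mostly of such fibres. Lactate dehydrogenase then turns pyruvate into lactate and regenerates NAD, and monocarboxylate carriers move lactate with a proton across the cell membrane. Myostatin is a secreted inhibitor of muscle growth, and muscle that lacks it is known in mice to be richer in fast glycolytic fibres. The comparison asks how the transcripts of this pathway stood on day 5.

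Promoter stretches are printed for 4 of the genes, to show the letters that lie before their starts. The table of promoters from RefSeq (build GRCm38.p6) matched 9 of the 10 genes, with 16 starts in all, and Gpd1 was not matched. The motif ACGTG or GCGTG is the core that the hypoxia factor HIF binds, and it was searched on both strands in the 250 bases before each start. It was found for 7 of the 9 genes, and for 41.5% of all genes in the table, with no test made. Tpi1 and Pgam2 were without it. For each motif a gene counted if any of its starts held a match, and Aldoa and Pkm held no HIF core at their first start. The whole table has 32851 starts for 27025 genes, and 38.6% of those starts held the HIF core. Shares by gene thus rest on unlike numbers of starts per gene. Matches are in capitals for Slc16a3 (chr11:120948817-120949066, plus strand), Ldha (chr7:46845554-46845803, plus strand) and Pgk1 (chrX:106186850-106187099, plus strand). For Pgam2 (chr11:5803797-5804046, minus strand) the capitals mark the 1 match to the consensus of MEF2, a muscle transcription factor, which 3.42% of all genes in the table hold. Pgam2 was the only 1 of the 9 matched genes with a MEF2 match. Each sequence runs 5′ to 3′ and ends at the base before the annotated start.
Slc16a3: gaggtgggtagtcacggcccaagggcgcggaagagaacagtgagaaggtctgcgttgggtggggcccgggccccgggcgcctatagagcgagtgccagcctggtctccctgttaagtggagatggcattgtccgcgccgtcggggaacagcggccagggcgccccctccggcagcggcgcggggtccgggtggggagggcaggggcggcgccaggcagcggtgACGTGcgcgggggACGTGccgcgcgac
Ldha: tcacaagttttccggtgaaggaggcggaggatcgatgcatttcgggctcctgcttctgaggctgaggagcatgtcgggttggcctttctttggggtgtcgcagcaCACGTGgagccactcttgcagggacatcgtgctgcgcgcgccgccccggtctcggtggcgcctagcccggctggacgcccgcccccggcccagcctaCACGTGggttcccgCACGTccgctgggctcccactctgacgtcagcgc
Pgk1: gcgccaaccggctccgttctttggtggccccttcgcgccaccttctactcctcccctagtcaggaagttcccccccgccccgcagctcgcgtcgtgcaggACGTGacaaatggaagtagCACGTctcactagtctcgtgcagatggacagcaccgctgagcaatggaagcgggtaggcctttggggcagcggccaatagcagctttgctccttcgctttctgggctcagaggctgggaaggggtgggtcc
Pgam2: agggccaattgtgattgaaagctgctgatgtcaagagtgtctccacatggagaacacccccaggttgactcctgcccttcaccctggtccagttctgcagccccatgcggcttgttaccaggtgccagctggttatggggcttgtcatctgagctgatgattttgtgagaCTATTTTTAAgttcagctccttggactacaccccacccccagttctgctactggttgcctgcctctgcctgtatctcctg

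The Slc16a3 matches begin 27 and 14 bases before the start. In Ldha the HIF core lies within CACGTG at 2 places, where it reads on both strands, so 5 matches were counted. The E-box CANNTG, the general site of the myogenic factors, overlaps those CACGTG runs and was found for 8 of the 9 genes, against 69.3% of all genes. A match is a run of letters and not a shown binding site.

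All 10 genes had a higher mean log2 signal in JA16 than in saline samples, by 4% to 28% when the brightest probe set stood for each gene. The lactate carrier gene Slc16a3 (28.3%) and Gpd1 (20.8%) had the largest differences, and Aldoa (3.90%) the smallest. Of the 19 probe sets that passed the filter on low signal, 1 passed the test, the dimmest of 3 for Pgk1, which was higher by 25.7%. Every other probe set, the brightest of each gene included, missed the threshold. The median log2 fold change of the 10 brightest probe sets was 0.10, against -0.036 over all 22519 probe sets tested.

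The test was limma on log2 signal with same-numbered samples as pairs, and p-values were adjusted over the 22519 probe sets with a threshold of 0.05. It called 45 probe sets (0.200%) over the whole table, and 28 (0.124%) were higher in JA16, against 1 of the 19 here. Unadjusted p under 0.05 with a higher mean in JA16 was seen for 10 of the 19, against 6.37% of all probe sets, which are of all signals. Among the brightest probe sets it was 5 of 10 (Tpi1, Gpd1, Pgk1, Pgam2 and Slc16a3). The rest are further probe sets of Tpi1, Gpd1 and Pgk1 in the same samples and do not count as separate genes. In the fit without the replicate block, which keeps the differences between pairs in the error, limma called 0 of the 19 and 2 of all probe sets (0.00888%). There 2 of the 19 were higher with an unadjusted p under 0.05, against 0.981% of all probe sets. They were the brightest probe set of Tpi1 and the dimmest of Pgk1. Among the 10 brightest probe sets the count was thus 1, without Gpd1, Pgk1, Pgam2 and Slc16a3.

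**Figure D1:**
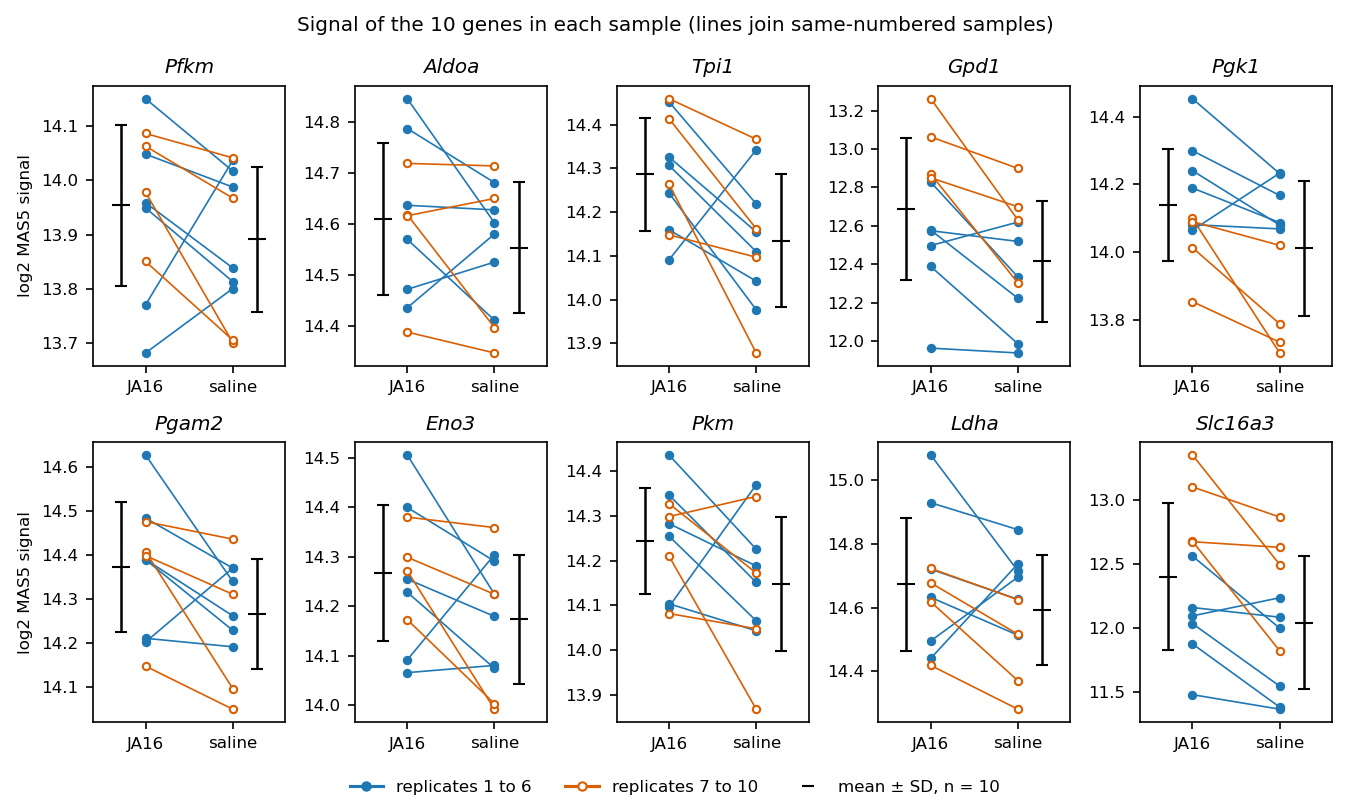
Log2 MAS5 signal (vertical axis) of the brightest probe set of each of the 10 genes in the 10 JA16 samples (left) and the 10 saline samples (right), with lines joining same-numbered samples and bars for mean ± SD. Blue filled points are replicates 1 to 6 and orange open points replicates 7 to 10, and the groups overlap for every gene.

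Small positive differences were common among bright probe sets on these arrays. Over all probe sets 42.3% had a higher mean in JA16, but this was 97.1% of the 171 probe sets with a mean log2 signal of 14 or more, whose median fold change was 0.064. In the range from 12 to 14 it was 69.1% of 1841 probe sets, with a median of 0.051. Of the 10 genes, 7 lie in the upper range and Pfkm, Gpd1 and Slc16a3 in the next, so that 10 of 10 higher has to be read beside those shares. With quantile normalization, which gives every array the same distribution, the upper range was at 46.8% and a median of -0.0016. The median of the 10 genes was then 0.032, and Pfkm and Aldoa turned to -0.0097 and -0.018. Tpi1 was at 0.077, Pgk1 at 0.053, Pgam2 at 0.036, Eno3 at 0.028, Ldha at 0.027 and Pkm at 0.025, each below its value as deposited by over 1.5 times. Slc16a3 at 0.33 and Gpd1 at 0.23 moved less.

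**Figure D2:**
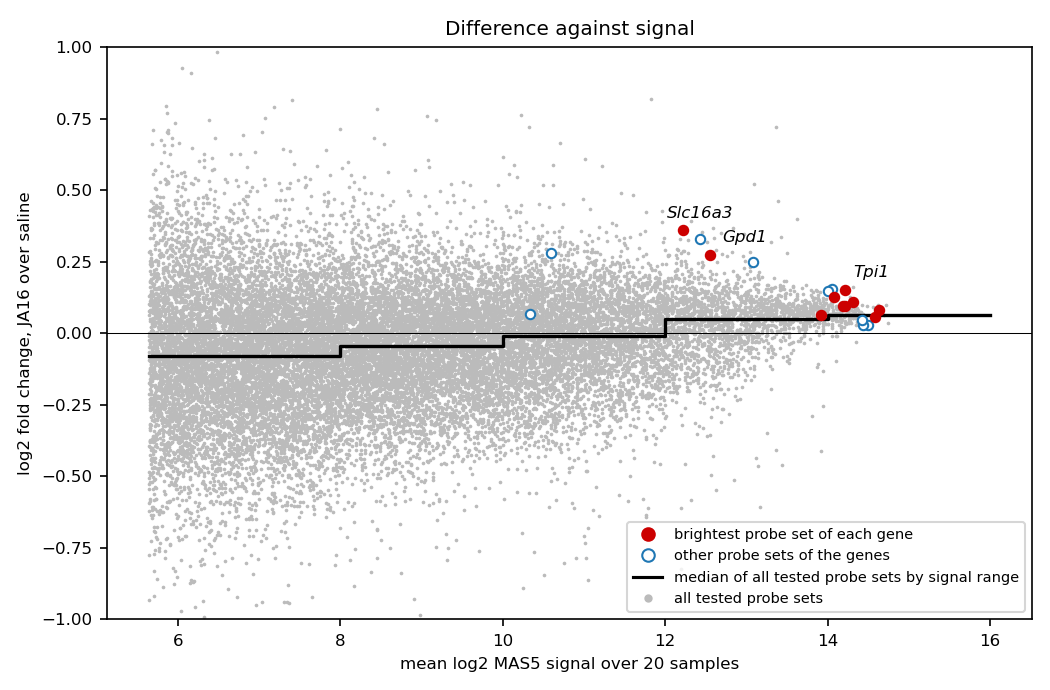
Log2 fold change of JA16 over saline (vertical axis) against mean log2 signal over the 20 samples (horizontal axis) for all 22519 tested probe sets, with 19 beyond the vertical range not shown. Red points are the brightest probe sets of the 10 genes, open blue points their other tested probe sets and the black steps the median of all probe sets in each signal range. Slc16a3 and Gpd1 lie farthest above the steps among the red points.

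The differences of Slc16a3 and Gpd1 were larger than most at their signal, and so were those of Tpi1, Pgk1 and Pgam2, among others. In the range from 12 to 14, 8 of 1841 probe sets exceeded the Slc16a3 difference, 32 that of Gpd1 and 827 that of Pfkm. In the upper range of 171 probe sets, 2 exceeded Tpi1, 4 Pgk1, 6 Pgam2, 20 Pkm, 24 Eno3, 46 Ldha and 114 Aldoa. These ranks are a description, and probe sets of the same gene and of the other genes here are counted among them.

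Upstream of the triose steps, Pfkm encodes the muscle form of phosphofructokinase, the main control point of glycolysis. Its signal ran from 13145 to 18180 in JA16 samples, with a median of 16027, against 13320 to 16860 in saline samples, with a median of 15333. The groups overlapped over most of their range, and the log2 fold change was 0.063 (SE 0.047, limma adjusted p = 0.516). Without pair 7 it was 0.039 and without pair 1 0.099.

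Aldoa encodes aldolase A, which splits fructose bisphosphate into triose phosphates. Its brightest probe set ran from 21429 to 29430 in JA16 samples (median 25119), against 20830 to 26861 in saline samples (median 24672). The log2 fold change was 0.055 (SE 0.040, limma adjusted p = 0.497), and without pair 2 it was 0.034. All 5 Aldoa probe sets end in _x_at, an ending for sets with probes that match other transcripts too, and they lay between 0.030 and 0.067. With 5 to 7 of 10 pairs higher, they show little separation of the groups.

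Tpi1 encodes triosephosphate isomerase, which interconverts the triose phosphates. The brightest of its 3 probe sets had a signal of 17450 to 22523 in JA16 samples (median 19969), against 15059 to 21124 in saline samples (median 17960). JA16 was higher in 9 of 10 pairs, and the log2 fold change was 0.15 (SE 0.050, limma adjusted p = 0.208). The other 2 probe sets were at 0.15 and 0.15, so the 3 measurements of this transcript differed by less than their SE.

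Gpd1 encodes the cytosolic glycerol-3-phosphate dehydrogenase, which draws dihydroxyacetone phosphate off the pathway and reoxidises NADH for the glycerol phosphate shuttle. Its brightest probe set ran from 3990 to 9831 in JA16 samples (median 6692), against 3921 to 7641 in saline samples (median 5513). JA16 was higher in every pair but pair 2, and the log2 fold change was 0.27 (SE 0.072, 95% interval 0.12 to 0.43, limma adjusted p = 0.162). A dimmer probe set gave 0.28 (SE 0.10). These SEs are from the paired fit. Without the replicate block they were 0.15 and 0.48, with unadjusted limma p of 0.0759 and 0.561. Neither of the remaining 2 of its 4 probe sets passed the filter, with mean signals of 52.7 and 3.54 in JA16 samples and 39.2 and 3.63 in saline samples.

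Gpd1 is also made by fat cells. Of the 8 adipocyte markers listed, 6 had a single-gene probe set and 5 passed the filter, 1 higher and 4 lower in JA16 with a median of -0.38, and none of the 5 was called. The higher one was Car3, which muscle also expresses and which gave 66.4% of the markers' mean signal in saline samples. Summed over the other 4, the signal was 4969 to 26948 in JA16 samples (median 8863) and 7485 to 12790 in saline samples (median 9850). JA16 replicate 1 held the highest sum, against 10643 for the next JA16 sample, and without pair 1 the list median was -0.86. Replicates 1 to 6 gave a list median of -0.061, and replicates 7 to 10 one of -0.85. The part of fat cells in the Gpd1 difference was not tested.

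Pgk1 encodes phosphoglycerate kinase, the first step that makes ATP. Its 3 probe sets gave unlike sizes. The brightest had a signal of 14804 to 22428 in JA16 samples (median 17495), against 13328 to 19262 in saline samples (median 17249), and the log2 fold change was 0.13 (SE 0.046, limma adjusted p = 0.231). The next was at 0.25 (SE 0.071, limma adjusted p = 0.185). The dimmest had a signal of 4633 to 8217 in JA16 samples (median 6385), against 3394 to 6893 in saline samples (median 4898). The groups overlapped across samples, but JA16 was higher in 10 of 10 pairs, by 0.19 to 0.49. Its log2 fold change was 0.33 (SE 0.047, 95% interval 0.23 to 0.43, limma adjusted p = 0.0141).

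That call depended on the pairing and on the settings of the fit. Without the replicate block the same probe set had an SE of 0.14 and a limma adjusted p of 1, and without pair 5 its limma adjusted p was 0.0522. It ends in _x_at, and the annotation used gives no accession for it. Since the brighter Pgk1 probe sets missed the threshold, the call is one of a probe set and not of the gene as a whole.

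**Figure D3:**
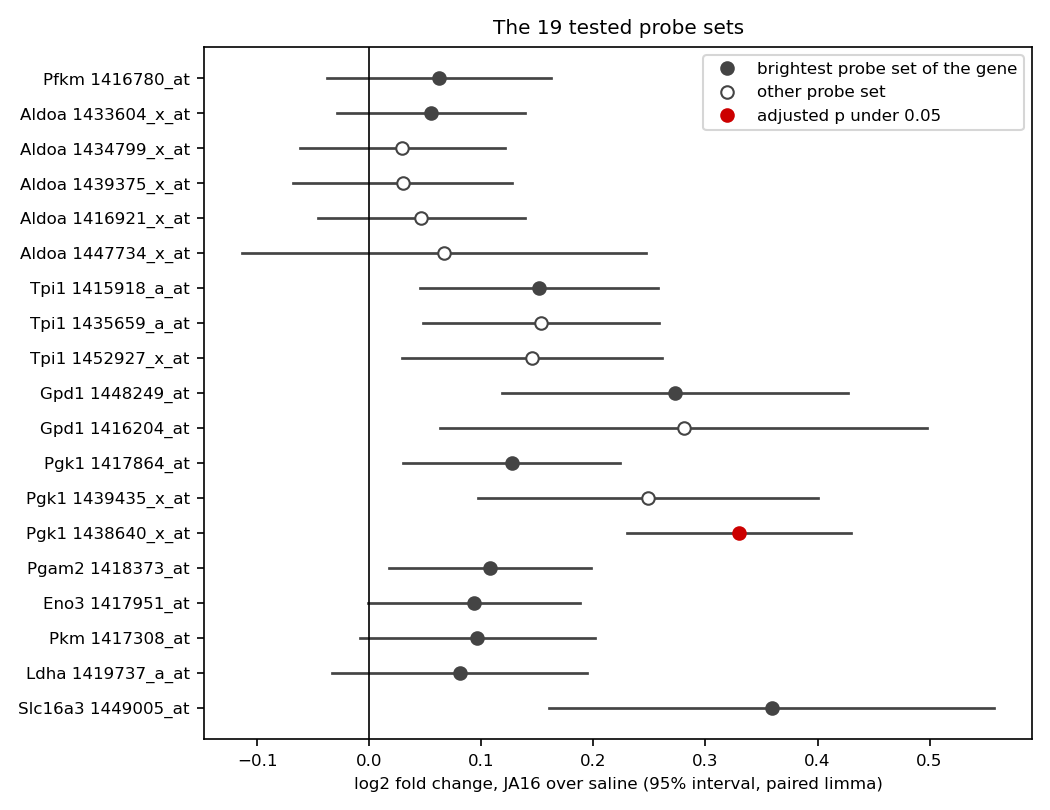
Log2 fold change of JA16 over saline (horizontal axis) with its 95% interval from paired limma for the 19 tested probe sets (vertical axis, gene and probe set). Filled points are the brightest probe set of a gene, open points the others, and the red point is the called Pgk1 probe set at 0.33.

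Pgam2 and Eno3 encode the muscle forms of phosphoglycerate mutase and enolase, which lead to phosphoenolpyruvate. Pgam2 ran from 18136 to 25292 in JA16 samples (median 21519), against 16948 to 22152 in saline samples (median 19970). It was higher in 9 of 10 pairs, and its log2 fold change was 0.11 (SE 0.042, limma adjusted p = 0.260). Eno3 ran from 17154 to 23260 in JA16 samples (median 19665), against 16299 to 21013 in saline samples (median 18850), and its log2 fold change was 0.094 (SE 0.045, limma adjusted p = 0.324).

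Pkm encodes the muscle pyruvate kinase, which makes pyruvate and ATP. Its signal was 17343 to 22162 in JA16 samples (median 19738), against 14957 to 21165 in saline samples (median 18330), and the log2 fold change 0.096 (SE 0.049, limma adjusted p = 0.352).

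Ldha encodes the lactate dehydrogenase subunit of fast muscle. It ran from 21901 to 34592 in JA16 samples (median 25794), against 19915 to 29413 in saline samples (median 25268). The medians lie close together, and the log2 fold change was 0.081 (SE 0.053, limma adjusted p = 0.462). Without pair 2 it was 0.049 and without pair 1 0.12. The highest signal on any array lay between 31880 and 45475, and the deposited values carry no mark for saturated probes, so a ceiling on these bright probe sets could not be checked.

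Slc16a3 encodes MCT4, the carrier that exports lactate from glycolytic fibres. Its signal ran from 2853 to 10474 in JA16 samples (median 5314), against 2636 to 7479 in saline samples (median 4218). Groups overlapped, while 9 of 10 pairs were higher in JA16, all but pair 2. In the paired fit the log2 fold change was 0.36 (SE 0.093, 95% interval 0.16 to 0.56, limma adjusted p = 0.162). Without the replicate block its SE was 0.23, with an unadjusted limma p of 0.129. With any 1 pair left out of the paired fit the fold change stayed between 0.30 and 0.41 and was not called.

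The difference within pairs shows how the genes varied together. In 5 of 10 pairs (3, 4, 6, 7 and 10) all 10 genes were higher in JA16. Pair 1 went the other way for 8 genes, with a median difference of -0.19, and only Gpd1 and Slc16a3 were higher in it, at 0.056 and 0.076. The JA16 sample of pair 1 stands apart in fat cell markers, with Adipoq, an adipocyte hormone gene, at 6614 against a JA16 median of 387.5. That sample also held the highest JA16 sum of macrophage and leukocyte markers, 19587 against 12493 for the next. In pair 2 Gpd1 and Slc16a3 were the lower ones, at -0.12 and -0.14, while the other 8 were higher, Ldha most at 0.36. Pair 7 had the largest median, 0.33. Its saline sample stands apart in macrophage markers, with Lyz2, a lysozyme gene, at 13131 against a saline median of 3639 and Adgre1 at 1591 against 195, and it held the lowest saline value for 5 of the 10 genes. The part of these samples in the pair differences was not tested, and the median of the 10 genes was 0.14 without pair 1 and 0.079 without pair 7. In pairs 7 and 8 Slc16a3 was higher by 0.86 each time, its largest values. At least 9 of 10 pairs were higher for 5 of the 10 genes (Tpi1, Gpd1, Pgk1, Pgam2 and Slc16a3), against 3.00% of all probe sets. Among probe sets of like signal the share was 9.56% in the range from 12 to 14 and 8.19% at 14 or more.

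**Figure D4:**
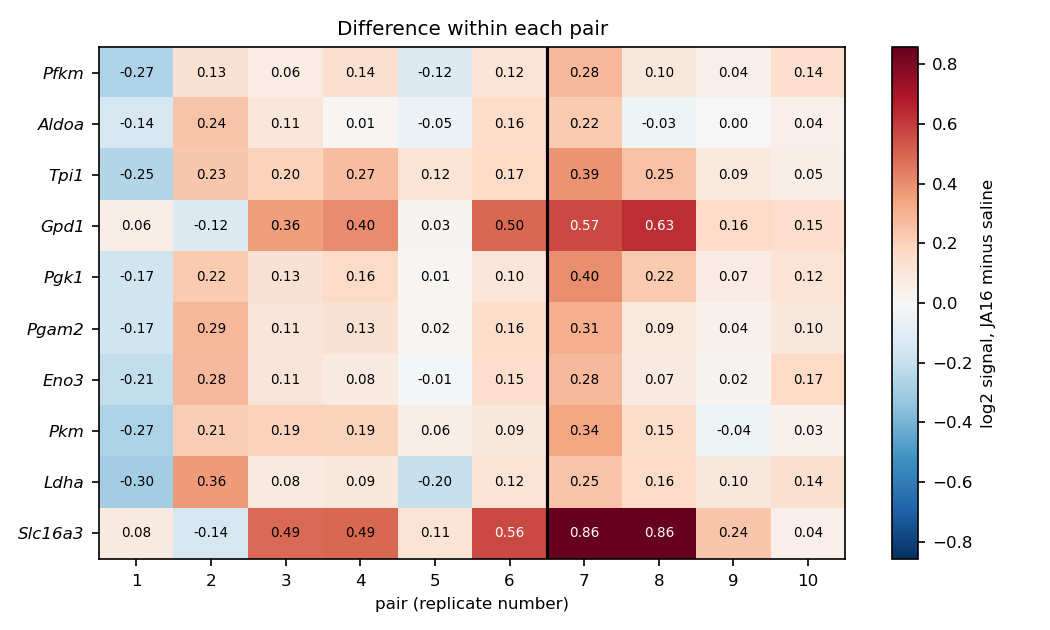
Difference in log2 signal, JA16 minus saline, within each of the 10 pairs (columns) for the 10 genes (rows), in colour and as printed values, with a line between replicates 6 and 7. Pair 1 is blue for 8 genes, and Slc16a3 and Gpd1 share their high pairs (3, 4, 6, 7 and 8).

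The samples fell into 2 sets by replicate number, which no label names. The beta-actin control has probe sets at its 3′ and 5′ ends, and the log2 ratio between them, a sign of RNA or labelling quality, was 1.33 to 1.83 in JA16 and 1.69 to 1.84 in saline samples of replicates 1 to 6. In replicates 7 to 10 it was 0.50 to 0.58 in JA16 and 0.48 to 0.64 in saline samples. It was lower in JA16 in 8 of 10 pairs, with a mean difference of -0.13, and its part in the results was not tested beyond the fit with it as a covariate.

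Levels of 3 of the genes moved with these sets. Slc16a3 had 6540 to 10474 in JA16 samples and 3619 to 7479 in saline samples of replicates 7 to 10, and 2853 to 6050 and 2636 to 4827 in those of replicates 1 to 6. The dimmer Gpd1 probe set had 3518 to 5560 in JA16 samples and 2391 to 4341 in saline samples of replicates 7 to 10, against 645 to 1436 and 551 to 1081 in replicates 1 to 6. The called Pgk1 probe set went the opposite way, with 4633 to 5968 in JA16 samples and 3394 to 4488 in saline samples of replicates 7 to 10, and 6349 to 8217 and 4752 to 6893 in replicates 1 to 6.

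Within each set the 10 brightest probe sets were all higher in JA16 on average. Replicates 1 to 6 gave a median fold change of 0.078, and replicates 7 to 10 one of 0.15. Slc16a3 was at 0.27 and 0.50, Gpd1 at 0.20 and 0.38, and Ldha at 0.027 and 0.16 in these sets. The called Pgk1 probe set was at 0.31 and 0.36. The difference between sets was tested as an interaction in limma, and called 0 of the 19 probe sets and 0 over the table, with 0 of the 19 and 589 of all at an unadjusted p under 0.05. The cause of the sets was not tested.

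Other genes of the pathway did not share a direction. Of 17 other isoforms and steps of glycolysis, 8 were measured above the filter, 5 higher and 3 lower, with a median of 0.0019, and limma called 0, with 1 at an unadjusted p under 0.05. Beside this count and those of the lists below, 3530 of all 22519 probe sets had such a p in the paired limma fit, in either direction. Bpgm, which makes 2,3-bisphosphoglycerate, was the highest of them at 0.14 (SE 0.058, limma adjusted p = 0.274). Hk2, the hexokinase of muscle that commits glucose to the pathway, was at 0.0019 (SE 0.045, 95% interval -0.095 to 0.098). Pgam1, the non-muscle partner of Pgam2, was at 0.041 (SE 0.12). No probe set was annotated to Gapdh or Eno1 alone, and these genes were not analysed here.

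Ldhb encodes the heart-type lactate dehydrogenase subunit of oxidative fibres. It ran from 1824 to 21003 in JA16 samples (median 10655), against 4716 to 16582 in saline samples (median 14049), and was lower in 7 of 10 pairs. The log2 fold change was -0.35 (SE 0.24, limma adjusted p = 0.483). JA16 replicate 3 held the lowest value, and without pair 3 the fold change was -0.049 (SE 0.081). Ldhb levels also moved with these sets, at 1824 to 21003 in JA16 samples and 13885 to 16582 in saline samples of replicates 1 to 6, and at 4979 to 8781 in JA16 samples and 4716 to 9162 in saline samples of replicates 7 to 10.

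Among 14 measured genes of lactate and pyruvate transport and use, 8 were higher and 6 lower, with a median of 0.060, and limma called 0, with 3 at an unadjusted p under 0.05. Slc16a1, which encodes MCT1, the carrier of oxidative fibres, was at -0.016 (SE 0.096, 95% interval -0.22 to 0.19), beside 0.36 for Slc16a3. Its lowest JA16 value was that of replicate 3 as well, and without pair 3 it was at 0.075 (SE 0.071). Bsg, named after its values were seen, encodes basigin, the membrane partner that MCT1 as well as MCT4 needs to reach the cell surface. It was higher in 8 of 10 pairs at 0.21 (SE 0.061, limma adjusted p = 0.190). Bsg levels also moved with the array sets. They were 3594 to 6557 in JA16 and 3340 to 5549 in saline samples of replicates 1 to 6. In replicates 7 to 10 they were 8624 to 14543 in JA16 and 6359 to 13074 in saline samples. Gpt, an alanine transaminase that uses pyruvate, was at 0.34 (SE 0.10, adjusted p = 0.194), and Pdp1, a phosphatase that activates pyruvate dehydrogenase, at -0.26 (SE 0.099, adjusted p = 0.255).

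**Figure D5:**
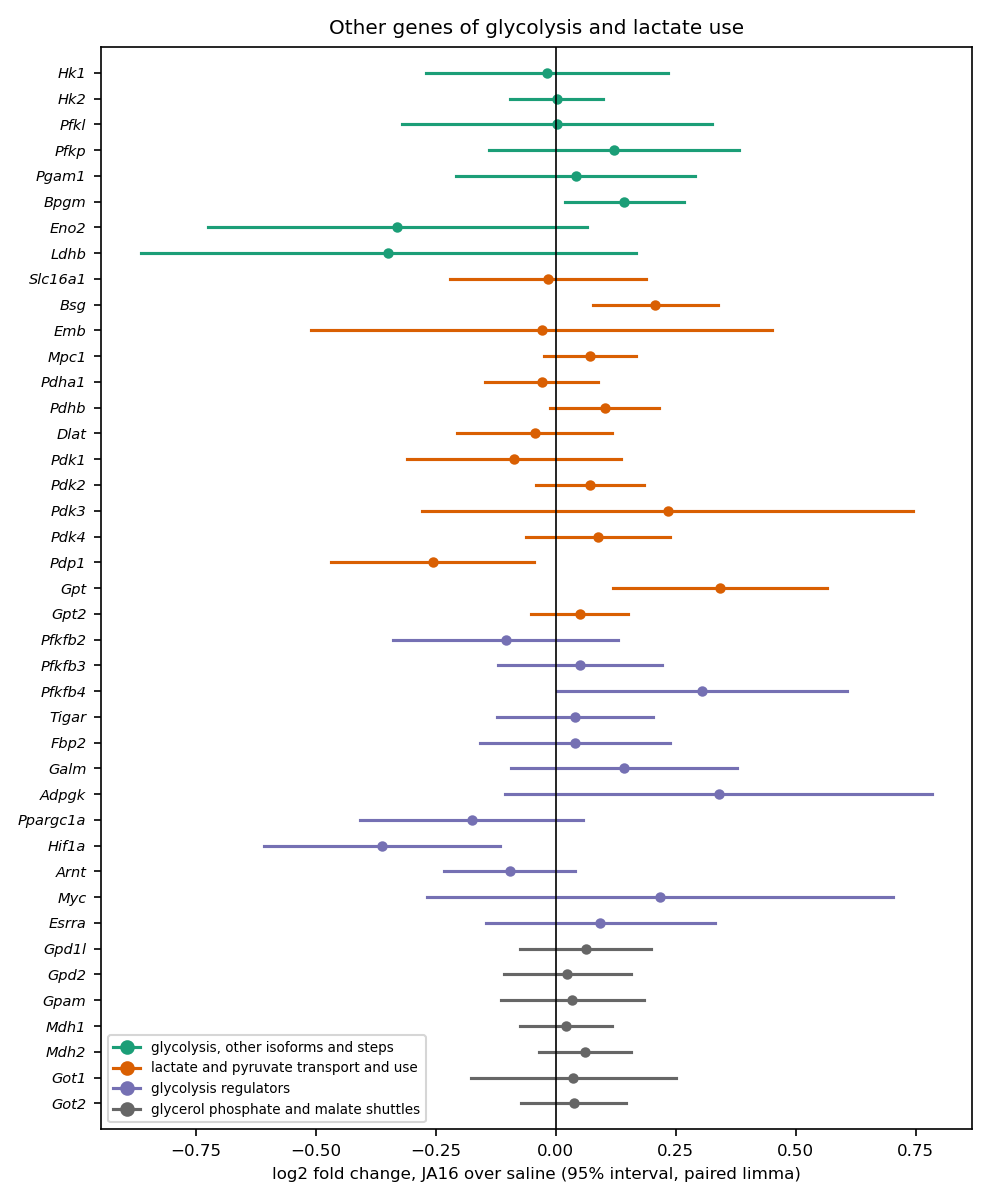
Log2 fold change of JA16 over saline (horizontal axis) with its 95% interval from paired limma for the other measured genes of glycolysis, lactate and pyruvate use, regulation and shuttles (vertical axis), coloured by list. No gene passed the adjusted threshold, and points lie on both sides of 0 in every list but the shuttles.

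Regulators of glycolysis were higher for 8 of 12 measured genes, with a median of 0.046, and limma called 0, with 2 at an unadjusted p under 0.05. Hif1a, which encodes the oxygen-regulated subunit of HIF, was lowest at -0.36 (SE 0.12, limma adjusted p = 0.204) and lower in 8 of 10 pairs. The ADP-dependent glucokinase gene Adpgk was highest at 0.34 (SE 0.21). Without pair 1 Adpgk was at 0.19, below Pfkfb4 at 0.32, and without pair 7 the list had 6 higher and 6 lower genes and a median of -0.0033. All 7 measured genes of the glycerol phosphate and malate shuttles were higher, by 0.021 (Mdh1) to 0.062 (Gpd1l), a median of 0.037, with 0 called. Without pair 3 or pair 7, 6 of 7 were higher. All but Gpd1l had a mean log2 signal of 12 or more. In the range from 12 to 14, 69.1% of all probe sets were higher, with a median of 0.051. At 14 or more it was 97.1%, with a median of 0.064.

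Fibre type markers were set beside the genes, since the glycolytic enzymes are abundant in fast fibres. Of 12 fast fibre markers 10 had positive differences (median 0.048), from Myh2 at -0.29 to Casq1 at 0.12, and limma called 0, with 2 at an unadjusted p under 0.05. Of the 12, 10 lie in the upper signal range, where 97.1% of probe sets were higher with a median of 0.064. Without pair 3 Myh2 was at 0.051. Their summed signal was 223794 to 327511 in JA16 samples and 214096 to 281289 in saline samples. All 10 slow fibre markers were lower, with a median of -0.49, 0 called, and a summed signal of 10332 to 166616 in JA16 samples and 66165 to 138266 in saline samples. The lowest sum was that of JA16 replicate 3. For each of the 10 slow markers, pair 3 gave the lowest difference and pair 2 the highest. Pair 2 differences ran from 0.29 (Mb) to 2.09 (Tnni1), and list values without pair 2 were not computed. The array sets differed as well, with a slow median of -0.77 for pairs 1 to 6 against -0.10 for pairs 7 to 10. Without pair 3 7 of the 10 were lower and the slow median was -0.16, while the median of the 10 genes was 0.0995. Leaving out that pair also moved the medians of the other isoforms to 0.056, the regulators to 0.028, the shuttles to 0.062, the adipocyte markers to -0.087 and the blood marker Alas2 to -0.052. The median of the other isoforms was -0.015 without pair 1. In whole muscle, fewer fibres of a type and less RNA per fibre cannot be told apart.

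Markers of nerve, vessel and connective tissue cells were mostly lower in JA16 beside these genes. All 6 measured nerve and Schwann cell markers of 9 listed were lower (median -0.60), with sums of 6529 to 18250 in JA16 samples and 9222 to 18784 in saline samples. All 8 endothelial and mural markers were lower (median -0.20), with sums of 11184 to 14352 in JA16 samples and 12019 to 15905 in saline samples. Of 9 fibroblast and tendon markers 8 were lower (median -0.19), with sums of 22806 to 55676 and 32231 to 55435 in JA16 and saline samples. Macrophage and leukocyte markers were lower for 4 of 6 (median -0.098), with sums of 5307 to 19587 in JA16 samples and 6272 to 23574 in saline samples. Their median turned between the sets, with 0.19 for replicates 1 to 6 but -0.45 for replicates 7 to 10, and without pair 7 all 6 were higher, with a median of 0.062. The 1 measured blood marker, Alas2, was at -0.096. Limma called 0 in each list, with 5 nerve, 3 endothelial and 2 fibroblast markers at an unadjusted p under 0.05, and their part in the results was not tested. Over all 22519 probe sets, 3530 had an unadjusted p under 0.05 in that fit, in either direction, and 42.3% had a higher mean in JA16.

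The genes whose pattern was most like the mean of the 10 were ranked by correlation. After the group mean was taken away, Pearson's r over the 20 samples was highest for Myoz1, a Z-disc protein gene of fast fibres, at 0.97, out of 11191 other genes. It was 0.99 in the 12 samples of replicates 1 to 6 and 0.99 in the 8 of replicates 7 to 10. Tmem38a, a cation channel gene of the sarcoplasmic reticulum, was at 0.94, and Gstm5, the muscle creatine kinase gene Ckm and Apobec2 were at 0.92 each. Spearman's rho for these 5 was 0.93 to 0.97. The samples share arrays and scaling, and the values are a description. Their own log2 fold changes were 0.054 (Gstm5) to 0.16 (Apobec2), with 0 of the 5 called.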

How the data were processed

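RNA of 20 gastrocnemius samples was amplified with a NuGEN kit and hybridised to Affymetrix mouse arrays. The authors deposited linear probe set intensities, made with MAS5 per the submitters' processing notes, with no version. On every array the mean without the lowest and highest 2% was 500.0, so the arrays had been scaled to 1 trimmed mean, while medians ran from 38.9 to 77.1. The scaling target and detection calls were not given in the sources used here, and the number of arrays limits the precision.

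The 5 values at 0 were set to 0.1 before log2. Of 45037 probe sets that were not controls, 34945 had 1 gene in the platform annotation, 932 several and 9160 none, and only the first were named. All 10 gene identifiers matched RefSeq with the same symbol. Probe sets entered at a mean log2 intensity of 5.65 or more, the median, which left 22519. Linear models came from limma 3.58.1 (R 4.3.3), with moderated variances that follow a trend on intensity, as JA16 minus saline, two-sided, with Benjamini-Hochberg adjustment over all of them. Fold changes given as percent are from mean log2 differences. The replicate number was a block, as the rule for these genes pairs same-numbered samples. Once group means were removed, same-numbered samples correlated at 0.45 to 0.78 in all 10 pairs, above the limit of 0.1, against a median of -0.13 for other combinations. The other combinations include samples from different array sets, while each pair lies within a set. These values therefore cannot separate a likeness of pairs from a likeness within sets. The saline array has the lower number in all 10 pairs, so array order cannot be told apart from treatment. Each gene is represented by its brightest probe set, and from the other lists the genes with the smallest and largest fold change and a few fixed ones were named. The genes and lists were chosen with earlier results of these data known. The fits were run on simulated data with noise drawn independently for each probe set and array. Such noise lacks shifts shared by bright probe sets, so the simulation cannot show how the fits handle those. Sequences were read with Python 3.11.15 and pandas 2.3.3, and figures drawn with matplotlib 3.10.9. Alternatives were the fit without the block, other normalizations, filters, log offsets and blocks, each array set alone, and each pair left out, and list values without pair 1, 3 or 7 were added after seeing the data.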

Additional observations from a re-analysis of the deposited data

How the results depend on the processing

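The number of the 19 probe sets called was 1 with the replicate block and also with quantile normalization, no filter, a filter at the 75th percentile or log2(intensity + 16). It was 0 without the replicate block, with centred medians, without the intensity trend, with the array set as the block, with the beta-actin ratio as a covariate, in either array set alone, with 1 probe set per gene, without cross-matching probe sets, and, added after seeing the data, without replicates 3 and 7 or with quantile normalization and no block. With 1 pair left out it was 0 to 1, and 0 without pair 5. The last 2 planned choices remove the called Pgk1 probe set itself, and for the others the cause was not tested. Its fold change stayed between 0.30 and 0.40 in all of these fits.

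The median of the 10 genes was 0.032 with quantile normalization, 0.17 with centred medians and 0.15 with the beta-actin ratio, and 0.079 to 0.14 with 1 pair left out. Quantile normalization, with or without the block, turned Pfkm to -0.0097 and 4 Aldoa probe sets to -0.018, -0.045, -0.034 and -0.022. A dim Aldoa probe set was at -0.053 in replicates 7 to 10 alone, another Aldoa probe set ran from -0.0035 to 0.064 with 1 pair left out, and yet another was at -0.0057 without replicates 3 and 7. Over all probe sets 45 were called, 28 of them higher, against 2 (0 higher) without the block, 13 (5 higher) with centred medians, 1 (0 higher) without the trend, 9 (3 higher) with the array set as block, 2 (0 higher) with the beta-actin ratio, 29 (17 higher) without cross-matching probe sets, 0 in each array set (2158 and 1506 at an unadjusted p under 0.05) and 7 to 52 with 1 pair left out. Leaving out any of pairs 3 to 10 lowered this count to between 7 and 27.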
